A study of Mus musculus with 8 samples.

Results

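The 88 rows described here are the nuclear genes for subunits of the oxidative phosphorylation complexes, chosen from the 32390 rows of the count table by gene symbol. The name rule took symbols beginning with Ndufa, Ndufb, Ndufc, Ndufs or Ndufv and a number, the 4 Sdh genes, Uqcr genes, Cox4 to Cox8 genes and Atp5 genes, without pseudogene names. It used no measured value, except that for a repeated symbol the row with most counts was taken. It gave 37 genes of complex I, 4 of complex II, 8 of complex III, 20 of complex IV and 19 of complex V. Ndufa4 and Ndufa4l2 were counted with complex IV, where the NDUFA4 protein is now placed. Atp5if1, which encodes an inhibitor of the ATP synthase, was taken by the rule and is counted among the subunits of complex V. Gastrocnemius, a mixed hindlimb muscle that is mainly fast in mice, was taken at 21 months of age from 4 Nox4 fl/fl (control) and 4 MckCre:Nox4 fl/fl (KO) male mice on chow. Both groups carry the floxed alleles, and the KO mice also carry Cre under the muscle creatine kinase promoter, which is active mainly in skeletal muscle and less in heart, so that other cells of the muscle keep NOX4, an NADPH oxidase that makes hydrogen peroxide. The labels place all 8 mice in 1 batch. The poly(A) libraries were unstranded and the comparison asks how muscle NOX4 deficiency alters the transcriptome of aged muscle.

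Complexes I to IV pass electrons from NADH and succinate to oxygen. Complexes I, III and IV, but not complex II, also pump protons across the inner mitochondrial membrane. Complex V, the ATP synthase, uses the returning protons to make ATP. Complexes I, III, IV and V join subunits from both genomes, whereas complex II is wholly nuclear encoded. In muscle the nuclear subunit genes are known as targets of the transcription factors NRF1, GABP (an ETS factor), YY1 and the estrogen-related receptors, which PGC1α coactivates.

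Promoters of 69 of the 88 genes could be matched by symbol to RefSeq (GRCm38.p6, an older build than the GRCm39 of the counts), each from 250 bases before to 50 bases after the start of the gene. On both strands, the NRF1 core GCGCANGCG was in 20 of the 69 (29.0%) and in 6.47% of all 27025 promoters in the table. The ETS motif CCGGAAG was in 21.7% against 9.12% of all promoters, the YY1 motif AAGATGG in 14.5% against 6.48%, and the estrogen-related receptor motif AAGGTCA in 13.0% against 4.66%. The core of the antioxidant response element, TGACNNNGC, was in 13.0% of subunit promoters and 12.5% of all promoters, and the muscle E-box CAGCTG was in 10.1% against 16.1%. A match is a run of letters and does not show that a factor binds. Promoters of 3 complex IV genes and 1 complex III gene are shown as examples. Cox6a1 had the lowest fold change of the subunits, and Cox8a and Cox8b are isoforms of the same subunit. Uqcrc1 is a further example with the NRF1 core. Cox4i2, which had the highest fold change, was not among the promoters matched. Capitals mark the motifs named here, and the NRF1 core overlaps itself on the other strand where the run reads the same both ways.
Cox6a1, the ubiquitous isoform of subunit 6a, minus strand, chr5:115348909-115349208, with NRF1 and ETS motifs: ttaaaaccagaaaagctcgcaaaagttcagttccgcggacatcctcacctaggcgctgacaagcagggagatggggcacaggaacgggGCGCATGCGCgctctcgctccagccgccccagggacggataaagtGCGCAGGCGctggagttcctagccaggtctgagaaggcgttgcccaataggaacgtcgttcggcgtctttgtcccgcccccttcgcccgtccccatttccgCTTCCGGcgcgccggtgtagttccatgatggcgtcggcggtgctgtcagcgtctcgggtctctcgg
Cox8a, the ubiquitous isoform of subunit 8, minus strand, chr19:7217567-7217866, with ETS motifs: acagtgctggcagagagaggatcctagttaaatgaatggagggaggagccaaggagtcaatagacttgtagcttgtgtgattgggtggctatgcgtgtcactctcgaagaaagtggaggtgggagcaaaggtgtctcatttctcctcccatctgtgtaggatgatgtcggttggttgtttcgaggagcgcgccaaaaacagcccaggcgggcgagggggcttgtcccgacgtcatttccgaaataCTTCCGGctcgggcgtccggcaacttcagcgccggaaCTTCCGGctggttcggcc
Cox8b, the heart and muscle isoform of subunit 8, minus strand, chr7:140900397-140900696, with E-boxes: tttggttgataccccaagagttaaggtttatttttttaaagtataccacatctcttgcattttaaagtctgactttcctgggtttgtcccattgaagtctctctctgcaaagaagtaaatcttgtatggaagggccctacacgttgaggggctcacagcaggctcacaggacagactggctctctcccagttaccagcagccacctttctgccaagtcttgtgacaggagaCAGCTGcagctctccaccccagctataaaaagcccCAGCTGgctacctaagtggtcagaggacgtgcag
Uqcrc1, a core protein of complex III, plus strand, chr9:108936398-108936697, with NRF1 motifs: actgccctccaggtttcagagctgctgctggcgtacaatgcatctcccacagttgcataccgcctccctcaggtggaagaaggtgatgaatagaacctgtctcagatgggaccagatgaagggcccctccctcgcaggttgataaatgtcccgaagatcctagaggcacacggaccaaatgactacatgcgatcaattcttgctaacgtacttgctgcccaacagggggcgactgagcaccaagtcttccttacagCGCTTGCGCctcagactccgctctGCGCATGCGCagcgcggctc

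The libraries held 16350548 to 19804661 counts, and the subunits took between 1.55% (KO 2) and 2.25% (KO 1) of them. Fast-fiber markers such as Myh4, the type IIb myosin, and Atp2a1, the fast calcium pump, were high in all 8 mice. Nox4 mRNA was at 5.09, 2.47, 1.87 and 3.64 CPM (counts scaled to library size with TMM factors) in control 1 to 4, and at 1.74, 2.17, 2.21 and 2.17 CPM in KO 1 to 4. The ranges overlapped, since control 3 lay below 3 of the KO mice, and the log2 fold change of −0.65 had an SE of 0.29 and an adjusted p of 0.207 by the edgeR quasi-likelihood test with Benjamini-Hochberg adjustment. Whole muscle was thus not separated into the labelled groups by this gene, and whether its counts cover the floxed exons is not given in the sources used here. A row was called lower or higher where the adjusted p was under 0.05 and the log2 fold change was below −0.5 or above 0.5.

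Of the 88 genes, 83 passed the filter on low counts and were tested among 12725 rows. The 5 others were at or near 0 in both genotypes. Cox8c, Ndufb11b and the older name Atp5o held no count, although the subunit once named Atp5o is listed as Atp5po, which was tested. Cox7b2 held 2 counts over the 8 mice, both in KO 2. Cox6b2, the testis isoform of subunit 6b, held 27 counts, 11 of them in KO 3.

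No subunit gene was called lower and none was called higher in KO muscle by edgeR, against a background of 3.48% and 2.68% of all rows tested. None passed the adjusted p alone in either direction, where 4.62% of rows were lower and 3.13% were higher. DESeq2 in R and pydeseq2 called 0 subunits as well. At an unadjusted p under 0.05 there were 2 subunits, Cox4i2 and Ndufa4l2, whereas 23.2% of all rows were below that value. The groups did not overlap for 1 subunit, Cox4i2, which was higher in all KO mice (background 7.20%), and for no subunit with all KO mice below all control mice (background 8.97%). In bulk muscle, less RNA per fiber and a smaller share of fibers cannot be told apart.

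Most of the log2 fold changes were small and positive. Over the 83 subunits they ran from −0.35 (Cox6a1) to 0.72 (Cox4i2) with a median of 0.12, beside a median of 0.01 over all rows, and 75 were above 0 and 8 below. The median was 0.13 in complex I, 0.12 in complex II, 0.08 in complex III, 0.10 in complex IV and 0.11 in complex V. The 95% interval of the difference lay within 0.5 of 0 on the log2 scale for 59 of the 83 subunits and within 1 for 82, the exception being Cox4i2. The median SE was 0.15. The median of the subunits was 0.02 without KO 1, 0.23 without KO 2, and 0.06 without control 4.

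**Figure D1:**
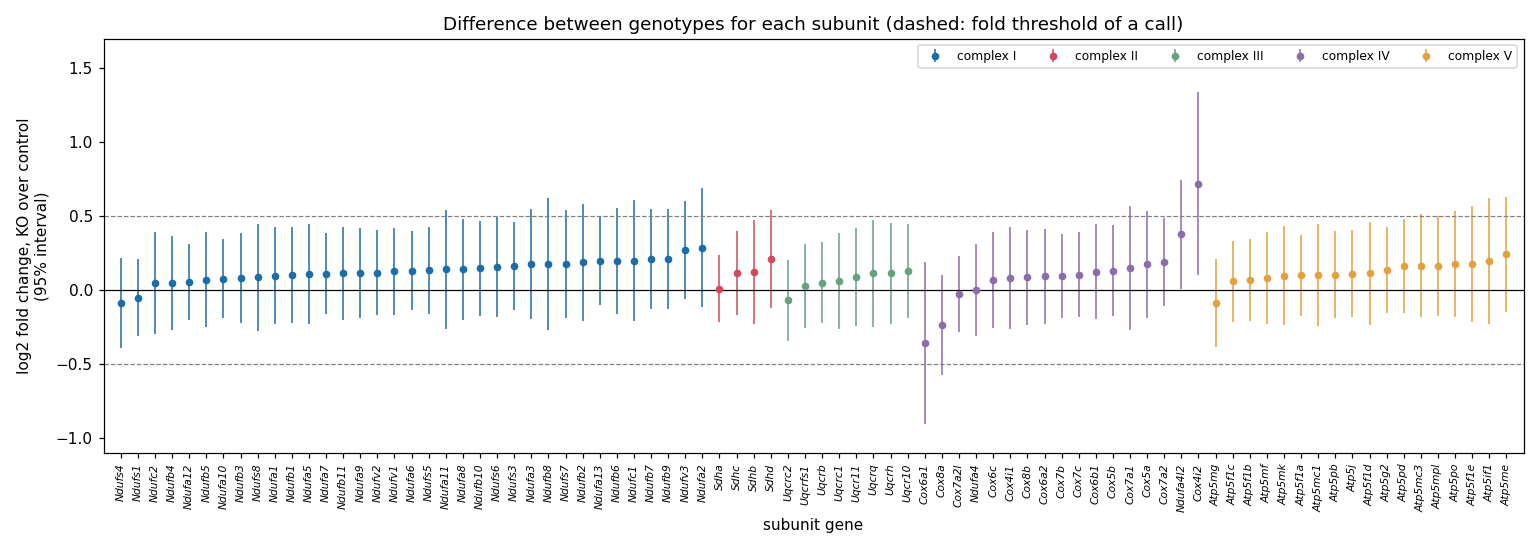
Log2 fold change of KO over control muscle (vertical axis) for the subunit genes tested other than 1 that is not reported here, grouped and coloured by complex, with 95% intervals from the edgeR fit over 4 mice per genotype. Dashed lines mark a log2 fold change of 0.5 in either direction. Of the points, 75 lie above 0, and only Cox4i2 lies beyond a dashed line.

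In complex I, which oxidises NADH, 33 of 36 subunits had a log2 fold change above 0. Ndufs4, an accessory subunit whose loss causes Leigh syndrome, had the smallest p among the lower subunits of this complex. It was at 143, 141, 141 and 132 CPM in control 1 to 4 and at 167, 97.5, 123 and 135 CPM in KO 1 to 4. KO 1 was the highest and KO 2 the lowest of the 8, on both sides of all the control mice. The log2 fold change was −0.09 with an SE of 0.14 (adjusted p = 0.760, edgeR). Ndufv3, an accessory subunit of the NADH-oxidising module, was at 63.0, 69.1, 68.6 and 54.0 CPM in control and 99.1, 57.5, 81.4 and 69.4 CPM in KO mice, with KO 2 within the control range. Its log2 fold change was 0.27 with an SE of 0.15 (adjusted p = 0.319, edgeR).

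Ndufb8, an accessory subunit of the membrane arm that antibody cocktails detect, was low in this table, at 12.5, 11.1, 12.2 and 8.89 CPM in control and 15.3, 8.19, 16.2 and 10.8 CPM in KO mice. The KO values spread to both sides of the control range, and the log2 fold change was 0.18 with an SE of 0.20 (adjusted p = 0.652, edgeR). In the GENCODE vM21 annotation Ndufb8 overlaps another gene on the same strand, Gm20538, so that its count may be incomplete. With 5.21 CPM per kilobase in control muscle it lay below all other complex I subunits but Ndufb2, at 2.10. Values per kilobase use the longest annotated transcript and are too low where a shorter one is expressed.

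Complex II oxidises succinate in the citric acid cycle and feeds electrons to coenzyme Q. Sdha, the flavoprotein, varied little between mice, at 764, 826, 741 and 692 CPM in control and 742, 678, 824 and 800 CPM in KO mice. The groups overlapped throughout, with a log2 fold change of 0.01, an SE of 0.10 and a 95% interval from −0.22 to 0.24. Sdhb, the iron-sulfur subunit, was at 291, 310, 275 and 200 CPM in control and 346, 223, 272 and 331 CPM in KO mice, so that control 4 was the lowest of all 8. Its log2 fold change was 0.12 with an SE of 0.16 (adjusted p = 0.697, edgeR). The membrane anchors Sdhc and Sdhd had log2 fold changes of 0.12 and 0.21 with adjusted p of 0.645 and 0.445 (edgeR).

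Complex III passes electrons from reduced coenzyme Q to cytochrome c. All 8 of its subunits had a 95% interval within 0.5 of 0. Uqcrc2, a core protein, was at 330, 363, 333 and 268 CPM in control and 330, 266, 281 and 358 CPM in KO mice, and its log2 fold change of −0.07 (SE 0.13, adjusted p = 0.797, edgeR) was the only one below 0. Control 4 and KO 2 were nearly equal and lowest. Uqcr10, a small subunit, was at 156 CPM in control 1, 2 and 3 and at 142 CPM in control 4, against 214, 119, 176 and 158 CPM in KO mice. The KO values again lay on both sides of the control values (log2 fold change 0.13, SE 0.15, adjusted p = 0.645, edgeR).

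Complex IV, cytochrome c oxidase, reduces oxygen to water, and several of its nuclear subunits have isoforms that differ between tissues. The heart and muscle isoforms are Cox6a2, Cox7a1 and Cox8b, and the ubiquitous ones are Cox6a1, Cox7a2 and Cox8a. In CPM per kilobase, Cox6a2 was on average 23.7 ± 4.49 times as high as Cox6a1 in control muscle and 32.9 ± 6.77 times as high in KO muscle (SD, n = 4). The ratio was 18.6, 21.2, 28.04 and 26.8 in control 1 to 4 and 34.2, 41.1, 24.8 and 31.6 in KO 1 to 4, where KO 3 lay within the control range. Cox8b was 14.5 ± 2.14 times as high as Cox8a in control and 18.1 ± 3.97 times as high in KO muscle (SD, n = 4), and these ratios overlapped. Cox7a1 and Cox7a2 were nearly balanced, with a mean ratio of 1.27 ± 0.147 in control and 1.22 ± 0.138 in KO muscle (SD, n = 4).

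The muscle isoforms differed little between genotypes, with log2 fold changes of 0.10 for Cox6a2, 0.15 for Cox7a1 and 0.09 for Cox8b and adjusted p from 0.684 to 0.768 (edgeR). Cox6a1 was at 16.1, 13.6, 11.1 and 9.36 CPM in control and 11.2, 5.56, 13.7 and 8.79 CPM in KO mice. KO 2 was the lowest of the 8 and the other KO mice lay among or near the control mice, with a log2 fold change of −0.35, an SE of 0.25 and an adjusted p of 0.438 (edgeR). Cox8a was at 19.1, 15.3, 13.8 and 15.9 CPM in control and 14.6, 11.0, 16.8 and 11.96 CPM in KO mice (log2 fold change −0.23, SE 0.16, adjusted p = 0.401, edgeR). KO 2 and KO 4 were below all control mice and KO 1 and KO 3 were not. Cox7a2, by contrast, had a log2 fold change of 0.19 with an SE of 0.14 (adjusted p = 0.445, edgeR), so the ubiquitous isoforms had no common direction.

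Cox4i2, the isoform of subunit 4 known from lung and from low oxygen, was at 1.32, 0.82, 1.23 and 1.30 CPM in control and 1.62, 1.37, 2.21 and 2.52 CPM in KO mice. All 4 KO mice were above all 4 control mice, the lowest of them by a small margin. The log2 fold change was 0.72 with an SE of 0.28, a 95% interval from 0.10 to 1.34 and an adjusted p of 0.150 (edgeR), the smallest among the subunits, and it alone was past the fold threshold. Cox4i1, the main isoform of this subunit, was 416 ± 129 times as high per kilobase in control muscle and 264 ± 76.0 times as high in KO muscle (SD, n = 4), with overlapping ratios. Its own log2 fold change was 0.08 with an SE of 0.16 (adjusted p = 0.804, edgeR).

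Ndufa4l2, a paralog of Ndufa4 that is known to be induced at low oxygen, came next, below the fold threshold. It was at 4.79, 5.56, 5.08 and 4.68 CPM in control and 7.82, 5.82, 7.25 and 5.28 CPM in KO mice. KO 4 lay within the control range and the other KO mice above it, with a log2 fold change of 0.38, an SE of 0.17 and an adjusted p of 0.203 (edgeR). Ndufa4l2 overlaps Shmt2 on the other strand, and in unstranded libraries reads from the shared stretch cannot be told apart. Ndufa4 itself was at 252, 273, 249 and 243 CPM in control and 318, 183, 267 and 249 CPM in KO mice, with a log2 fold change of 0.00. The ratio of Ndufa4 to Ndufa4l2 per kilobase, looked at after the values were seen, was 77.5 ± 2.81 in control and 59.8 ± 10.2 in KO muscle (SD, n = 4) and did not overlap, which is given as a description with no test.

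**Figure D2:**
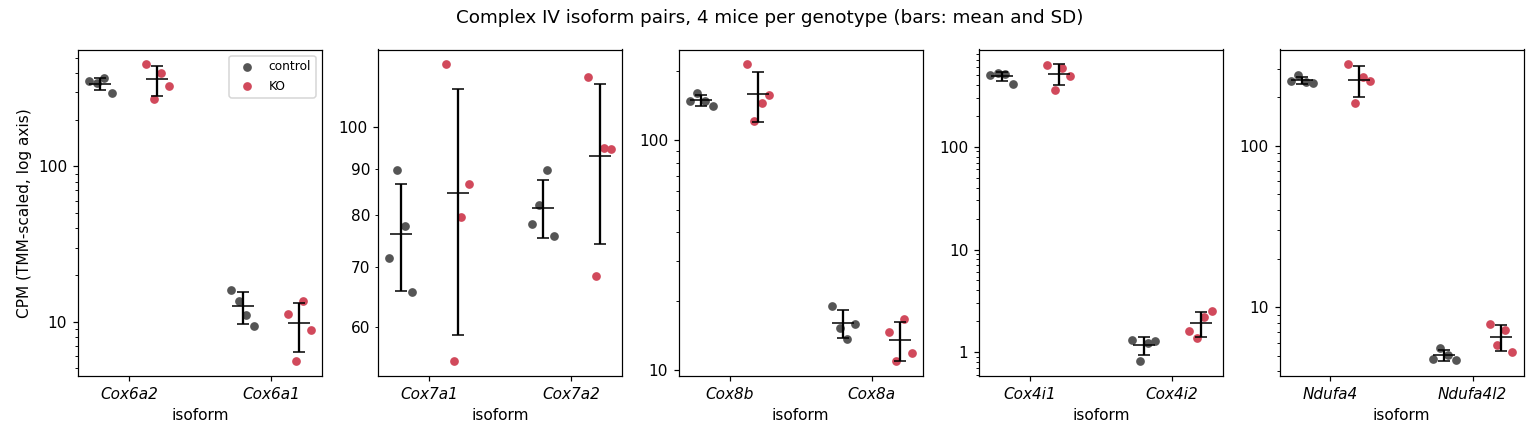
TMM-scaled CPM (log axis, a different range in each panel) of 5 complex IV isoform pairs, with 1 point per mouse, control in grey and KO in red, and bars for the mean and SD of 4 mice. The KO points spread more widely than the control points for the main isoforms, and only for Cox4i2 do all KO points lie above all control points.

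In complex V, 17 of 18 subunits had a log2 fold change above 0, with the inhibitor Atp5if1 counted among the 18. Atp5f1b, the catalytic beta subunit, had the highest level of all subunits per kilobase, at 1094 CPM per kilobase in control and 1147 in KO muscle. Atp5f1a, the alpha subunit, followed at 691 and 741, with a log2 fold change of 0.10, an SE of 0.13 and an adjusted p of 0.677 (edgeR). The 3 genes for the identical mature c subunit of the rotor ring, Atp5mc1, Atp5g2 and Atp5mc3, had log2 fold changes of 0.10, 0.14 and 0.17 and adjusted p from 0.585 to 0.747 (edgeR). Atp5me, subunit e of the membrane part, was at 69.9, 72.5, 69.7 and 60.9 CPM in control and 114, 54.5, 75.2 and 79.8 CPM in KO mice. KO 1 was far above and KO 2 below all control mice (log2 fold change 0.24, SE 0.18, adjusted p = 0.455, edgeR). Atp5mg, subunit g, was the only one with a log2 fold change below 0, at −0.08 (SE 0.14, adjusted p = 0.762, edgeR).

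The subunits also differed together among mice of 1 genotype. The values of each gene in log2 CPM were set against its mean over the 8 mice. The median of the 83 subunits was then 0.03, 0.03, −0.01 and −0.24 in control 1 to 4, and 0.34, −0.37, 0.19 and 0.03 in KO 1 to 4. KO 1 was therefore the highest and KO 2 the lowest of all mice, with the control mice between them. In complexes I, III, IV and V KO 1 was likewise highest and KO 2 lowest, whereas in complex II KO 1 was highest and control 4 (−0.34) lay below KO 2 (−0.31). The complexes had medians from 0.26 (complex II) to 0.35 (complex I) in KO 1 and from −0.40 (complex III) to −0.31 (complex II) in KO 2, and with −0.19 to −0.34 in control 4.

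**Figure D3:**
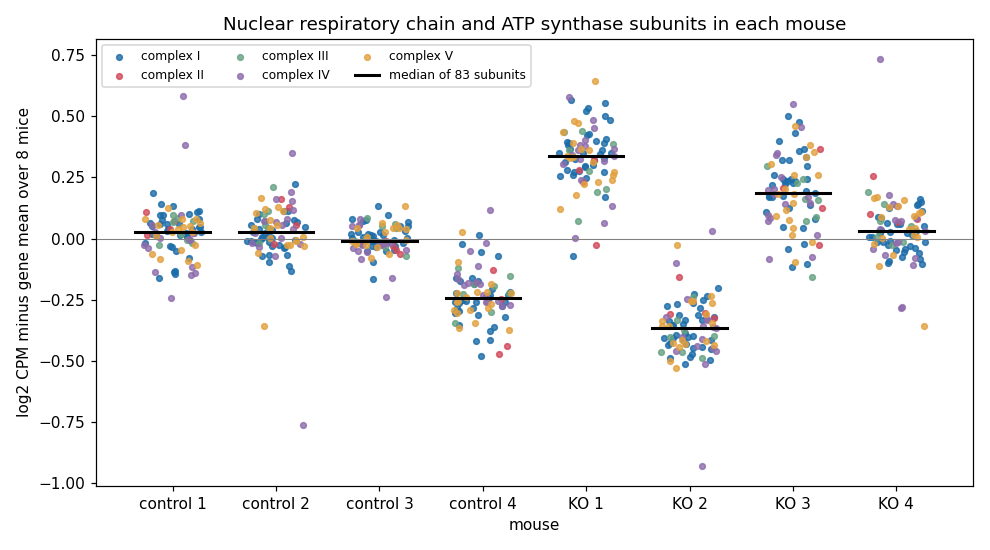
Deviation of each subunit gene from its mean over 8 mice (vertical axis, log2 CPM) in each mouse (horizontal axis), with 1 point per gene coloured by complex and a bar at the median of 83 subunits. The medians run from −0.37 in KO 2 to 0.34 in KO 1, and control 4, at −0.24, lies below the other control mice.

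KO 2 had the lowest value of all 8 mice in 70 of the 83 subunits and of the 4 KO mice in 81, whereas it was the lowest of 8 in 14.6% of the other rows. KO 1 had the highest value of all 8 in 63 subunits, and in 15.3% of the other rows. Control 4 was the lowest of the control mice in 74 of 83 subunits and in 28.4% of the other rows. The difference KO 1 minus KO 2 was above 0 for all 83 subunits, with a median of 0.73 on the log2 scale (1.66-fold), and ran from 0.13 for Sdha to 1.10 for Cox7a1. In the other rows it had a median of −0.02 and was above 0 in 48.1%. Mice of a genotype had no label that divides them, so that these differences are described and not tested.

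The SD over KO mice was larger than that over control mice in 82 of the 83 subunits (98.8%), beside 60.4% of all rows. The median SD was 0.14 in control and 0.32 in KO mice on the log2 scale, and 0.20 and 0.24 over all rows. The subunits rose and fell together across the 8 mice, with a median Pearson r of 0.87 over 3403 pairs, of which 99.5% were above 0. All pairs share the same 8 libraries and their depth, so that the pairs are not independent. The genes least like the median of the rest were Cox4i2 (r = 0.30), Cox8a (0.40), Atp5if1 (0.42), Ndufs1 (0.52) and Uqcrc2 (0.53).

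Transcript length moved with this spread. The median length of the subunit transcripts was 861 bases, beside 3161 over all rows, and 72 of the 83 were in the shortest of 5 equal length bins, up to 1767 bases. The other 2369 rows of that bin had medians of 0.21, −0.18, 0.16 and −0.07 in KO 1 to 4, and of 0.06, −0.08, 0.02 and −0.09 in control 1 to 4. The 2440 rows of the longest bin had the opposite signs in KO mice, with −0.23, 0.20, −0.12 and 0.10. Across rows, log2 length and the difference KO 1 minus KO 2 had a Pearson r of −0.52 over 12118 other rows and of −0.36 over the 83 subunits, as a description, since all rows share the same 2 libraries. Sdha and Ndufs1, with transcripts of 2900 and 2661 bases, had the 2 smallest differences among the subunits. Atp5mc1 (4715 bases), Ndufb2 (4371 bases) and Atp5mk (2733 bases) had differences of 0.78, 0.96 and 0.79, above the subunit median. The lengths are those of the longest annotated protein-coding transcript, which need not be the one mainly expressed in this muscle. For the mean of control 1 to 3 minus control 4, the r with log2 length was 0.22 over the subunits and −0.14 over the other rows, so that the signs differed.

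**Figure D4:**
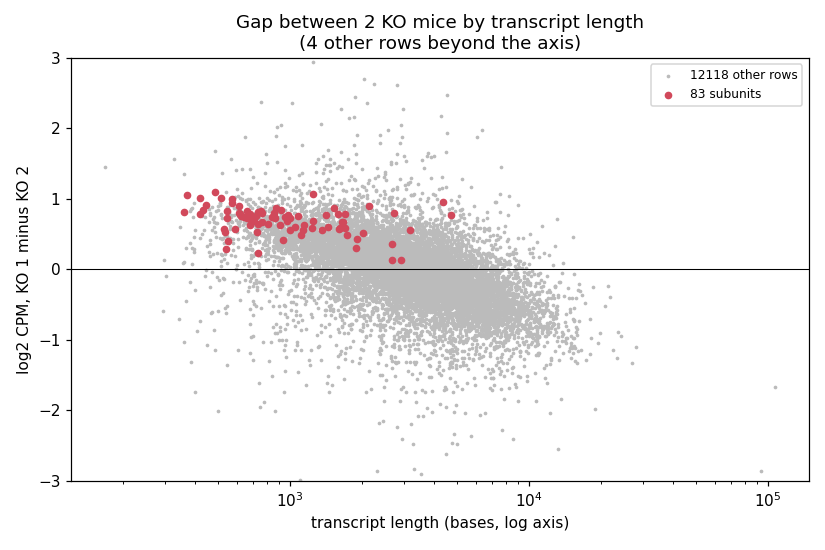
Difference KO 1 minus KO 2 in log2 CPM (vertical axis) against transcript length in bases (horizontal log axis), with 83 subunits in red and 12118 other rows in grey, 4 of which lie beyond the vertical axis. All subunits lie above 0 and most are short, and the other rows fall with length.

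With the trend on GC content and length removed from each library, the subunit medians were −0.09, 0.15, 0.04 and −0.04 in control 1 to 4 and −0.08, −0.06, −0.08 and 0.12 in KO 1 to 4. The difference between KO 1 and KO 2 in these medians was then nearly gone, and control 2 and KO 4 were the highest. The median log2 fold change of the subunits became 0.04, with 58 of 83 above 0. One subunit, Cox8a, passed the adjusted p with a log2 fold change of −0.39 (adjusted p = 0.042, edgeR), below the fold threshold, and no subunit was called. What makes long and short transcripts differ between these libraries was not tested.

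**Figure D5:**
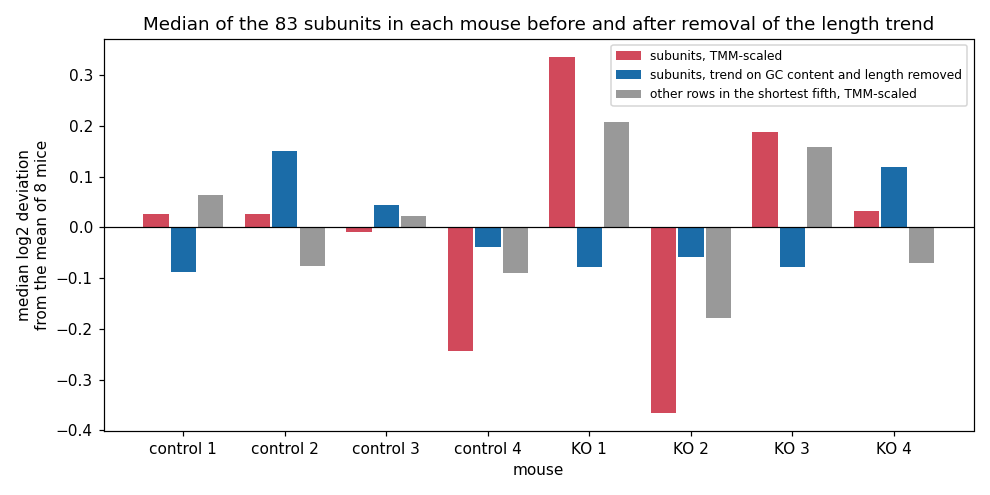
Median log2 deviation from the mean of 8 mice (vertical axis) in each mouse for the 83 subunits before (red) and after (blue) the trend on GC content and length was removed, and for the 2369 other rows in the shortest of 5 length bins (grey). The red and grey bars point the same way in KO 1, KO 2, KO 3 and control 4, and the blue bars lie between −0.09 and 0.15.

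Some other marker lists also differed between mice. Of 5 blood markers listed, 3 were tested and 2 of these were called higher in KO muscle, beside 2.68% of all rows tested. The other, Alas2, was not called (log2 fold change 1.00, adjusted p = 0.111, edgeR), and its groups overlapped. Hba-a1, an alpha globin, was at 15.8, 13.4, 13.5 and 13.9 CPM in control and 48.1, 24.8, 40.1 and 20.8 CPM in KO mice (log2 fold change 1.24, adjusted p = 0.0098, edgeR), and Hbb-bs, a beta globin, had a log2 fold change of 1.00 (adjusted p = 0.015, edgeR). The summed level of the 3 markers ran from 47.6 to 52.7 CPM in control and from 72.3 to 159 CPM in KO mice, and no tested marker was at 0. KO 1 and KO 3 were highest for blood and also for the subunits. None of 8 slow-fiber markers was called, with a median log2 fold change of 0.64 and a summed level from 332 to 725 CPM in control and from 428 to 1279 CPM in KO mice. Their per-mouse medians were highest in KO 4, at 1.25, and low in KO 1, at −0.63, so that their order in KO mice was not that of the subunits. The 10 fast-fiber markers, by contrast, had medians of 0.21, −0.19, 0.19 and 0.04 in KO 1 to 4, which is the order of the subunits. In control 1 to 4 the medians were −0.02, −0.15, 0.13 and −0.14. Taken singly, only Mylpf, Tnni2 and Tnnt3 had that order in KO mice. Myh4, Atp2a1 and Actn3 had their lowest KO value in KO 1, and Myh1 and Myh2 had their highest in KO 4. None of these 10 was called and none was at 0, their median log2 fold change was 0.15, and their summed level ran from 130390 to 157470 CPM in control and from 138740 to 165050 CPM in KO mice. No nerve, adipocyte, immune, endothelial, or fibroblast and tendon marker was called. The 3 nerve markers summed to between 43.6 and 64.9 CPM in control and to 102, 130, 56.1 and 51.5 CPM in KO 1 to 4. The 6 adipocyte markers had their highest medians in control 1 (0.91) and KO 2 (0.90). The 6 immune markers had medians from 1.03 in control 1 to −0.84 in KO 4. The part of blood, fiber type or other cell types in the subunit values was not tested.

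Other genes of the pathway were taken from lists by function. Only 4 of 13 mitochondrially encoded subunit genes were analysed here, mt-Nd2, mt-Co3, mt-Nd3 and Mt-Cyb, and none was called, with a median log2 fold change of −0.08. Their per-mouse medians were −0.28, 0.17, −0.03 and 0.26 in control and 0.08, −0.12, −0.25 and 0.13 in KO mice. Control 4, the lowest control mouse for nuclear subunits, thus had the highest median here. Control 2 was above control 4 for mt-Nd2 and mt-Co3 and below it for Mt-Cyb and mt-Nd3. The 4 genes differed widely in level, with control means from 18.4 CPM (mt-Nd3) to 22029 CPM (Mt-Cyb). A list of 6 genes outside the name rule, which holds further subunits such as Cyc1, cytochrome c1, and the mobile carrier Cycs, cytochrome c, had no call and a median of 0.08. None of 54 assembly factors was called either, with a median of 0.11 and 41 above 0. Among 13 coenzyme Q synthesis genes, 13 citric acid cycle genes and 12 genes of the outer membrane and import, 0 were called in each, by edgeR, and 1, 0 and 1 had an unadjusted p under 0.05, as did 9 of the 54 assembly factors, while 23.2% of all rows did. These lists also had their lowest control median in control 4 and their lowest KO median in KO 2, from −0.16 to −0.23 and from −0.18 to −0.33.

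Regulators of mitochondrial biogenesis had 15 of 18 log2 fold changes below 0 and a median of −0.24, while the subunits had 75 of 83 above 0. Yy1, a zinc finger factor, was called lower, at the edge of the fold threshold. It was at 71.0, 74.5, 71.0 and 84.9 CPM in control and 51.7, 53.9, 53.7 and 53.3 CPM in KO mice, without overlap (log2 fold change −0.50, SE 0.09, adjusted p = 0.0082, edgeR). Over the 19 alternatives its log2 fold change ran from −0.53 to −0.44 and its adjusted p stayed at or below 0.030, so that the call, which also needs the fold, was lost in 8 of them. These were library size only (−0.49), at least 10 counts in every library (−0.48), removal of the GC content and length dependence (−0.47), and the fits without control 4 (−0.44), KO 1 (−0.48), KO 3 (−0.497), KO 4 (−0.49), or control 4 and KO 2 together (−0.45). Polrmt, the mitochondrial RNA polymerase, passed the adjusted p below the fold threshold (log2 fold change −0.38, adjusted p = 0.042, edgeR). Ppargc1a, which encodes PGC1α, was at 127, 161, 54.2 and 55.9 CPM in control and 27.7, 33.0, 29.5 and 61.4 CPM in KO mice. KO 4 lay within the control range, and the log2 fold change of −1.39 had an SE of 0.42 and an adjusted p of 0.086 (edgeR). No subunit was called beside these differences.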

How the data were processed

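The values are whole-number gene counts that the authors deposited without scaling for 8 gastrocnemius libraries, with a column for each mouse. Per the submitters' processing notes, STAR and GRCm39 were used, and the study names the nf-core RNA-seq pipeline. Which annotation and counting options were used is not given in the sources used here. Columns were tied to mice by their names, and the groups follow the genotype labels. Nothing states how far the mice were independent (litter, cage), so p-values measure the spread between these mice.

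All rows were fitted together in R 4.3.3 with edgeR 4.0.16 (TMM, filterByExpr, robust glmQLFit and glmQLFTest, with a single term for genotype). Benjamini-Hochberg adjustment ran over the 12725 rows tested. Log2 CPM values used a prior count of 2, and intervals are 95% intervals from the quasi-likelihood t distribution. Where a symbol repeated, the row with most counts was used. The pseudogene row Cox5b-ps was left out. Transcript length and GC content came from GENCODE vM21 (the longest protein-coding transcript per gene), matched for 12201 rows tested and all 83 subunits tested. Of the 85 subunit genes matched there, 31 overlap a gene on the other strand, whose reads cannot be told apart in unstranded counts, and 11 a gene on the same strand. Replicates differed by more than sampling noise, their chi-square divided by its degrees of freedom being 12.6 at the least and 52.1 at the most among 12 pairs.

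The genes named are the subunit with the smallest p in each direction in each complex, tissue isoforms, subunits that antibody cocktails detect, the Sdh genes, the subunits nearest the fold threshold, genes called in the other lists, and Nox4. Others named were chosen after their values were seen. The subunits and lists were chosen with earlier results of these data known. The fit was tested on simulated data. Alternatives were DESeq2 size factors, library size only, TMM factors without the subunits, no filter, at least 10 counts in every library, a fit that was not robust, the replicate number as a block, an offset that takes out the dependence on GC content and length in each library, each mouse left out, DESeq2 1.42.0, and pydeseq2 0.5.4. The single values of 1 subunit gene are not reported here.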

Additional observations from a re-analysis of the deposited data

Results flagged for a closer look

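In 7 of 70 groups of 4 mice examined, 1 mouse stood far from the other 3 by Dixon's ratio (its gap to the nearest mouse over the whole range, past the 95% critical value), where chance gives about 1 in 20, or 3.5 groups. Control 4 was the lowest control mouse for Ndufs4 (ratio 0.834), Uqcr10 (0.943) and Cox4i1 (0.853), for the median of all 83 subunits (0.870), and for the medians of complex I (0.876) and complex V (0.888). These 6 groups share genes and the same library. KO 1 was the lowest KO mouse for Nox4 (ratio 0.918), at 1.74 CPM beside 2.17 to 2.21 CPM in the others. The median log2 fold change of the subunits was 0.06 without control 4, with 63 of 83 above 0.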

How the results depend on the processing

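No subunit was called under any of the 19 alternatives, which included DESeq2 and pydeseq2. With the trend on GC content and length removed, 1 subunit was lower at the adjusted p (Cox8a), and log2 fold changes near 0 turned negative for Uqcr10 (−0.042), Cox4i1 (−0.054), Cox6a2 (−0.0063), Cox7a1 (−0.014), Cox8b (−0.11) and Ndufa4 (−0.093). That of Ndufa4 also changed sign with no filter (−0.0033), DESeq2 (−0.00059) and pydeseq2 (−0.00059). Without control 4 and KO 2 together, an alternative chosen after seeing the data, Ndufs4 was at 0.0043 and Atp5mg at 0.034, and the median of the subunits was 0.18. With each mouse left out in turn, the fold changes that changed sign ran from −0.22 to 0.030 for Ndufs4, −0.17 to 0.044 for Atp5mg, −0.013 to 0.22 for Cox4i1, −0.017 to 0.21 for Cox6a2, −0.037 to 0.31 for Cox7a1, −0.073 to 0.20 for Cox8b, −0.11 to 0.13 for Ndufa4 and −0.031 to 0.061 for Sdha. The median of the subunits then ran from 0.02 (without KO 1, 57 of 83 above 0) to 0.23 (without KO 2, 80 above 0). Over all rows, calls fell from 443 lower and 341 higher to 295 and 204 without control 4, to 227 higher without control 2, and to 168 higher without control 4 and KO 2. The cause was not tested.

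With the replicate block, 0 subunits were called, the median was 0.10, Ndufa4 was at −0.023, and all rows gave 543 lower and 390 higher calls. The correlations of same-numbered mice were 0.22, 0.15, 0.04 and 0.04. Control 1 correlated best with KO 1, but control 2 did so with KO 4, control 3 with KO 1 and control 4 with KO 2. The labels give no pairing, and these values cannot decide whether same-numbered mice share more than a number. With 4 mice per genotype and a median SE of 0.15, differences of 0.5 on the log2 scale lay outside the 95% interval for 59 of the 83 subunits. These intervals are not adjusted for the number of rows tested, so a true difference of 0.5 would not always have been called. Smaller differences were mostly not detectable.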
